A study of Mus musculus with 15 samples.

Results

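The genes described here are those of 9 solute carrier families that mostly carry sugars, amino acids and monocarboxylates across membranes. They were taken by name: every gene whose symbol in the platform's table begins with Slc1a, Slc2a, Slc3a, Slc6a, Slc7a, Slc16a, Slc36a, Slc38a or Slc43a, from probe sets that name 1 gene. This gave 90 of the 19938 genes tested: 7 of Slc1, 13 of Slc2, 2 of Slc3, 21 of Slc6, 16 of Slc7, 13 of Slc16, 4 of Slc36, 11 of Slc38 and 3 of Slc43. Not all of them are such transporters. Slc6a19os is a long non-coding RNA, Slc2a4rg-ps is a transcribed pseudogene, Slc7a6os is a gene on the strand opposite Slc7a6, Slc6a2, Slc6a3 and Slc6a4 carry monoamines, and Slc38a9 sits in the lysosome.

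Expression was measured on Affymetrix MoGene 1.0 ST arrays in liver cells taken at E14.5 from embryos of FVB/NJ mice. TER119 positive cells, which carry a surface antigen of maturing red cell precursors, were selected on magnetic columns, and TER119 negative cells were what such columns let through. The 4 groups were Klf3 knockout (KO) TER119 positive cells with 3 arrays, wild-type (WT) TER119 positive cells with 4 arrays, KO TER119 negative cells with 4 arrays and WT TER119 negative cells with 4 arrays. KLF3 is a transcriptional repressor that binds CACCC motifs, and the deleted part of the gene is not given in the labels. Nor do they say whether replicates came from separate embryos. By sex-linked genes, the KO TER119 positive, WT TER119 positive and KO TER119 negative groups each held arrays of both sexes. The replicates of these groups thus did not all come from a single embryo. All WT TER119 negative arrays were male, which leaves this open for them. The number of embryos behind each group is not known, so the spread behind each p-value may be technical in part.

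Red cell precursors take up glucose, lactate and amino acids to grow, and they use glycine, the substrate of the first step of haem synthesis, in large amounts. Glucose enters through facilitative carriers of the Slc2 family. Large neutral amino acids enter through heterodimers in which Slc3a2 is the heavy chain and a member of Slc7 is the light chain, while sodium-coupled carriers of Slc1, Slc6 and Slc38 accumulate glycine, glutamine and other small amino acids. Lactate carriers of Slc16 need a partner such as basigin (Bsg) or embigin (Emb) to reach the membrane.

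Windows around transcript starts, from 250 bases before to 50 after, are given for 4 members because the results turn on them: Slc6a20a, the member that differed between KO and WT cells, and Slc6a9, Slc2a1 and Slc16a10, which were among the members with the largest differences between TER119 populations. They were taken from RefSeq on GRCm38.p6. Capitals mark CACCC or its reverse complement GGGTG, and GATAA or its reverse complement TTATC. Of 3 windows of Slc6a9, the one holding matches to both motifs is shown.
Slc6a20a, chr9:123678783-123679082, - strand: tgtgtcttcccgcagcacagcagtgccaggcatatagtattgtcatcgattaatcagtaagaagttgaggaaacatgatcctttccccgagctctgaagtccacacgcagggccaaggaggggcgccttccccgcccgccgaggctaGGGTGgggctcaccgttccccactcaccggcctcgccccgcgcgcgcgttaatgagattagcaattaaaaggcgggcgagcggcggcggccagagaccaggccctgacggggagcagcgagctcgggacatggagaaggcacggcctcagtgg
Slc6a9, chr4:117855297-117855596, + strand: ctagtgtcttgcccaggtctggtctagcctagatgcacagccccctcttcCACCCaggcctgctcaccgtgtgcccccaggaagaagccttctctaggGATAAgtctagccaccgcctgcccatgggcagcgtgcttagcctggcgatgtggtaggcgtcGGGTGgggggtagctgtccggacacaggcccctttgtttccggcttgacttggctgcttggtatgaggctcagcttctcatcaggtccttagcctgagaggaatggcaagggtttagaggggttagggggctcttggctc
Slc2a1, chr4:119108495-119108794, + strand: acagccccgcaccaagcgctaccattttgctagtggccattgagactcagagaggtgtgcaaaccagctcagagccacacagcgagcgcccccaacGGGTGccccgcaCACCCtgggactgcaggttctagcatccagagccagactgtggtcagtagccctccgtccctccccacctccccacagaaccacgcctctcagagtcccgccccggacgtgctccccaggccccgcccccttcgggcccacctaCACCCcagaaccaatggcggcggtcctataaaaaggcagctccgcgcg
Slc16a10, chr10:40142205-40142504, - strand: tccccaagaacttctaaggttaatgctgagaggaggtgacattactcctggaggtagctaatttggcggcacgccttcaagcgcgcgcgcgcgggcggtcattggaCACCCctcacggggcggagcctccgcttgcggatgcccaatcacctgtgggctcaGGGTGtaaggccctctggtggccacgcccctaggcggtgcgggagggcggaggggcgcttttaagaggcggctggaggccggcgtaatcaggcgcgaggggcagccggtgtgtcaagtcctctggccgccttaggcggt
The Slc6a20a window held 1 GGGTG, beginning 103 bases before the start, and neither GATAA nor its reverse complement. A CACCC on either strand stood in 59 of the 87 windows of members (67.8%, from 66 genes), against 57.5% of all 32851 windows of this length. It stood in 24 of the 35 windows of members higher in TER119 positive cells of both genotypes (68.6%). GATAA on either strand stood in 24.1% of the members' windows and in 25.4% of all windows. These are matches of letters and carry no measurement of binding.

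The deposited values are log2 expression per probe set, and a difference of 1 is a 2-fold difference. The mean level of 46 members over all arrays lay below 5.47, the median of all genes, and 42 members lay below it in all 4 groups. The values carry no detection calls, and differences of such dim genes are compressed by the RMA summary. The Klf3 probe set itself read 10.55, 10.34 and 10.52 in KO TER119 positive cells, against 10.37, 9.94, 10.50 and 10.08 in WT TER119 positive cells. It did not separate the genotypes, so the genotype rests on the labels. Klf8, a gene that is no transporter, did separate them, at 7.62, 7.86 and 7.84 in KO TER119 positive cells against 4.66 to 4.77 in WT TER119 positive cells. Within groups, arrays correlated at 0.965 to 0.992 over all probe sets (Pearson's r). WT TER119 negative replicates 2 and 4 and KO TER119 negative replicate 4 were treated as standing apart from the rest of their groups, by a measure not given here. By sex-linked genes, 2 of 3 KO and 2 of 4 WT TER119 positive arrays, and 3 of 4 KO and 0 of 4 WT TER119 negative arrays, were female. All 16 measured erythroid markers were higher in TER119 positive cells of both genotypes, and all 20 hepatocyte markers were too.

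Loss of Klf3 was set against wild type first in TER119 positive cells. A single transporter gene, Slc6a20a, differed, and it was 4.24-fold higher in KO cells. Slc6a20a encodes a sodium-coupled carrier of proline and other imino acids. It read 7.72, 7.75 and 7.05 in KO TER119 positive cells, against 5.35, 5.40, 5.75 and 5.19 in WT TER119 positive cells. The groups did not overlap, and the WT values lay close to the median level of all genes. The means were 7.51 ± 0.40 (SD, n = 3) in KO cells and 5.42 ± 0.24 (SD, n = 4) in WT cells, a log2 difference of 2.08 with a standard error of 0.18 and an adjusted p of 3.3e-06 in limma's moderated test. Adjusted p-values are by Benjamini and Hochberg's method over all 19938 genes throughout, 2-sided, with a threshold of 0.05. This 1 member of 90 (1.11%) compares with 203 of all genes past the threshold, or 1.02%.

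The same gene read 5.50, 5.56, 6.17 and 5.89 in KO TER119 negative cells, against 5.36, 5.40, 5.44 and 5.44 in WT TER119 negative cells. All 4 KO arrays were above all 4 WT arrays. The log2 difference was 0.37 (SE 0.17) and did not pass the threshold (adjusted p = 0.655, limma). The KO effect was larger in TER119 positive than in TER119 negative cells by 1.71 on the log2 scale (SE 0.25, adjusted p = 0.00213, limma). Slc6a20a was the only member past the threshold in this test of the difference between effects, where 87 genes in all, or 0.436%, passed. TER119 positive cells exceeded TER119 negative cells by 1.73 in KO arrays (SE 0.18, adjusted p = 5.83e-07, limma), against 0.01 in WT arrays (SE 0.17, adjusted p = 0.962). These values share the KO TER119 positive arrays and are not separate evidence.

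**Figure D1:**
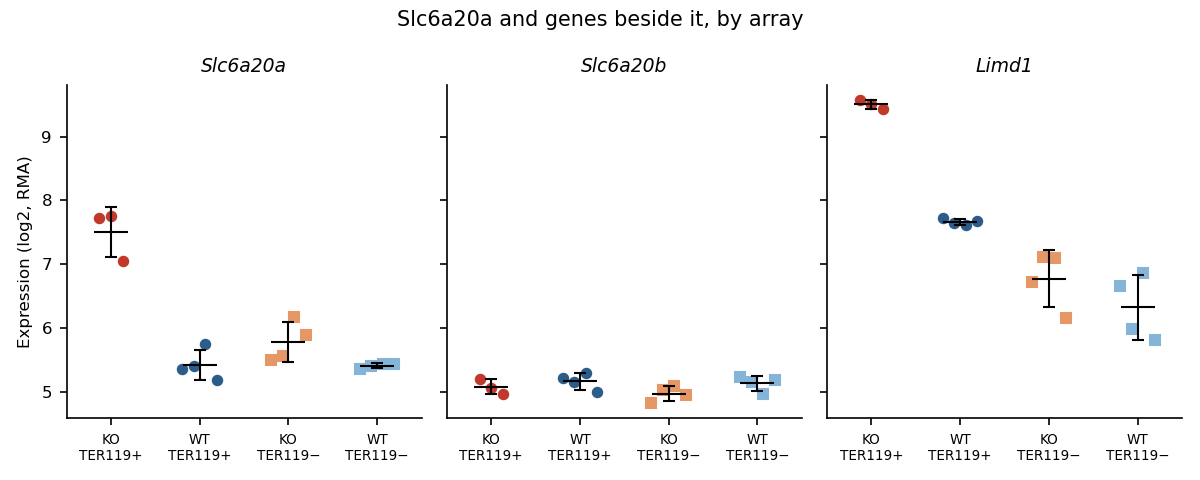
Log2 expression of Slc6a20a, Slc6a20b and Limd1 in each array (points) of the 4 groups, with the mean (long tick) and SD (bars). The 3 KO TER119 positive arrays of Slc6a20a lie between 7.05 and 7.75, above every other array, Slc6a20b lies near 5 in all groups, and Limd1 is above 9.4 in KO TER119 positive arrays alone.

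The paralogue next to it, Slc6a20b, did not share the difference. It read 5.20, 5.06 and 4.97 in KO TER119 positive cells, against 5.21, 5.15, 5.30 and 4.99 in WT TER119 positive cells (difference -0.09, SE 0.11, adjusted p = 1, limma). The probe sets of near-identical copies can share signal, which was not tested. On the chromosome the genes run Limd1, Sacm1l, Slc6a20b, Slc6a20a, Lztfl1, Ccr9 and Fyco1. Limd1, which encodes a LIM-domain adaptor protein, rose as well. It read 9.58, 9.51 and 9.44 in KO TER119 positive cells, against 7.72, 7.64, 7.61 and 7.67 in WT TER119 positive cells. That is 3.61-fold (log2 difference 1.85, SE 0.24, adjusted p = 0.00022, limma), and again the groups did not overlap. Between them Sacm1l, a phosphoinositide phosphatase, differed by -0.16 (SE 0.11, adjusted p = 1), and the genes on the other side differed by 0.00 for Lztfl1, -0.16 for Ccr9 and 0.04 for Fyco1, none past the threshold. The neighbours were looked up after Slc6a20a was known to have risen.

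The other 89 members did not pass the threshold in TER119 positive cells. The median difference of the members was -0.025 (all genes -0.01), with 39 members higher and 51 lower in KO cells, and 86 of the 90 differed by less than 0.5 in either direction. At an unadjusted p under 0.05 there were 9 members (10%), against 5.33% of all genes. The members of smallest p after Slc6a20a were Slc2a3, Slc6a3, Slc2a4 and Slc1a2.

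**Figure D2:**
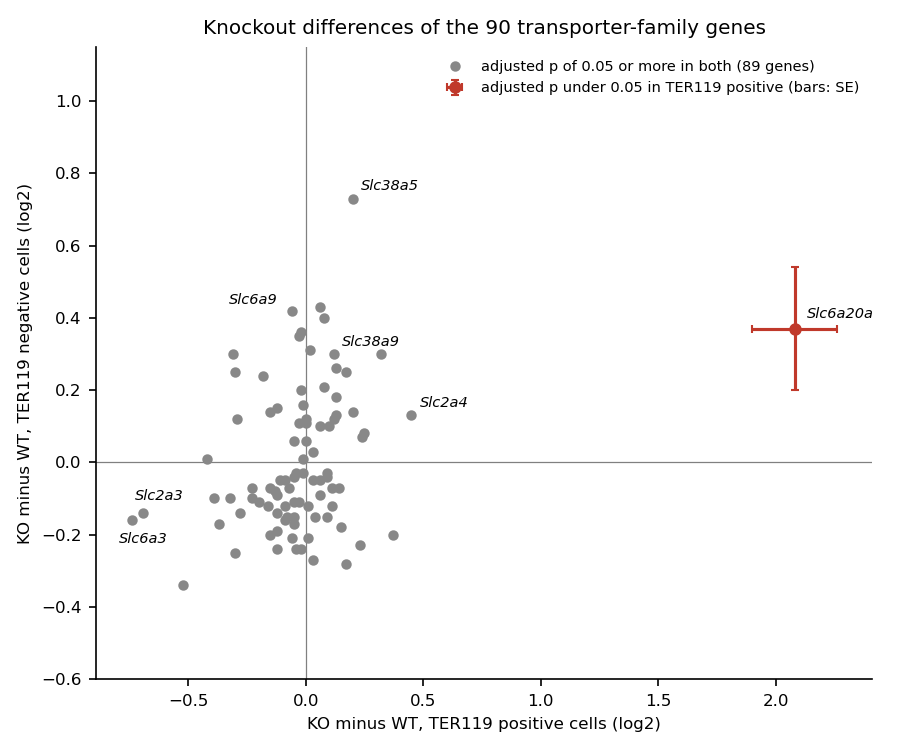
KO minus WT differences of the 90 genes on the log2 scale, in TER119 positive cells (horizontal) and TER119 negative cells (vertical), 1 point per gene, with standard errors for the gene past the threshold. Slc6a20a stands at 2.08 and 0.37; the other 89 genes lie between -0.74 and 0.45 horizontally and between -0.34 and 0.73 vertically.

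Among the sugar carriers, Slc2a3 encodes the high-affinity glucose transporter GLUT3. It read 7.94, 7.76 and 8.47 in KO TER119 positive cells, against 8.91, 8.70, 8.64 and 8.75 in WT TER119 positive cells. The groups did not overlap, and the difference of -0.69 (SE 0.20) had an adjusted p of 0.206. Slc2a4 encodes the insulin-responsive transporter GLUT4. It read 9.20, 9.14 and 8.93 in KO TER119 positive cells, against 8.94, 8.39, 8.71 and 8.55 in WT TER119 positive cells, so that 1 WT array reached the KO range. Its difference was 0.45 (SE 0.14, adjusted p = 0.266, limma). Slc2a1, the main glucose carrier GLUT1, read 12.82, 12.84 and 12.74 in KO TER119 positive cells and between 12.80 and 12.84 in WT TER119 positive cells, a difference of -0.03 (SE 0.16). Slc2a2, the low-affinity glucose carrier GLUT2 of liver, differed by 0.37 (SE 0.26, adjusted p = 1).

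Slc6a3, the dopamine transporter, read 5.20, 5.37 and 5.64 in KO TER119 positive cells, against 6.37, 5.95, 6.35 and 5.92 in WT TER119 positive cells. The groups did not overlap, and the difference was -0.74 (SE 0.22, adjusted p = 0.217, limma). When the fit held the TER119 positive arrays only, Slc6a3 passed the threshold (SE 0.15, adjusted p = 0.0404). Slc1a2, a glutamate carrier, differed by -0.37 (SE 0.12, adjusted p = 0.395), at levels of 5.04 to 5.14 in KO cells and 5.25 to 5.62 in WT cells.

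Within each population, Slc6a3 and Slc2a3, with Slc6a4, broadly ran with the markers of megakaryocytes, the platelet-forming cells. Slc6a4 encodes the serotonin transporter, which platelets use to take up serotonin. The mean of the 8 measured megakaryocyte markers (of 12 listed) was 8.69, 8.56 and 8.94 in KO TER119 positive arrays, against 9.51, 9.41, 9.37 and 9.68 in WT TER119 positive arrays. The median difference of these markers was -0.75, none passed the threshold, and 5 of 8 had an unadjusted p under 0.05. In TER119 negative cells the marker mean was 9.59, 8.49, 7.95 and 9.44 in KO arrays, against 8.41, 9.31, 9.73 and 9.18 in WT arrays. Slc6a4 in the same order read 8.08, 6.75, 6.38 and 8.04 in KO TER119 negative arrays, against 6.60, 7.60, 8.46 and 7.95 in WT TER119 negative arrays. The KO arrays with the high marker means, replicates 1 and 4, were those with high Slc6a4, and WT replicate 1 was lowest in both. In TER119 positive cells Slc6a4 read 6.70, 6.31 and 6.42 in KO arrays, against 6.98, 6.87, 6.95 and 7.18 in WT arrays. That difference of -0.52 (SE 0.40) did not pass the threshold. Slc6a4 did not follow the markers across populations. The WT TER119 positive values lay below those of WT TER119 negative replicates 2 and 4, whose marker means were lower. Slc6a3 read 5.81, 5.45, 5.05 and 5.79 in KO TER119 negative arrays, against 5.18, 5.81, 6.15 and 5.60 in WT TER119 negative arrays. Slc2a3 read 8.24, 7.72, 7.74 and 8.24 in KO TER119 negative arrays, against 7.82, 8.10, 8.64 and 7.95 in WT TER119 negative arrays. For both genes KO replicates 1 and 4 were above KO replicates 2 and 3, and WT replicate 3 was the highest of the WT arrays, as for the markers. Within the genotypes of TER119 positive cells the orders matched in part only. WT replicate 4 had the highest WT marker mean and the highest WT Slc6a4, but the lowest WT Slc6a3, at 5.92. KO replicate 3 had the highest KO marker mean, Slc6a3 and Slc2a3, but Slc6a4 was highest in KO replicate 1. For Slc6a3 the match there was largely the difference between KO and WT arrays itself. These are descriptions over arrays that share their preparation, chosen after the values were seen, and the part of megakaryocytes in the KO differences was not tested.

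No member passed the threshold for KO against WT in TER119 negative cells, and the smallest adjusted p was 0.526. Of all genes, 17 passed, or 0.0853%. At an unadjusted p under 0.05 there were 7 members (7.78%), against 7.56% of all genes, a share near the background. The median difference of the members was -0.047 (all genes -0.016), and 89 of 90 differed by less than 0.5.

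The member with the largest KO difference there was Slc38a5, a glutamine and histidine carrier. It read 7.78, 8.03, 8.48 and 7.43 in KO TER119 negative cells, against 7.56, 6.83, 7.60 and 6.79 in TER119 negative cells of WT. The groups overlapped, since KO replicate 4 lay below 2 WT arrays, and the difference was 0.73 (SE 0.21, adjusted p = 0.526, limma). Slc38a5 lies on the X chromosome, and 3 of 4 KO but 0 of 4 WT arrays in this comparison were female. Over 24 alternative fits, which included a sex factor, its difference ran from 0.46 to 0.90 and never passed the threshold. Slc6a9, the glycine transporter GlyT1, differed by 0.42 (SE 0.14, adjusted p = 0.636), at 5.63, 5.86, 6.38 and 5.95 in KO cells against 5.60, 5.45, 5.81 and 5.29 in WT cells. Both genes are among those far higher in TER119 positive cells. The mean of the 16 erythroid markers in these arrays was 8.39, 8.78, 9.09 and 8.59 in KO TER119 negative arrays, against 8.73, 8.18, 8.50 and 8.01 in WT TER119 negative arrays, with a median difference of 0.34. Within the KO arrays, replicate 3 was highest for both genes and for the erythroid markers. Within the WT arrays the orders differed: the erythroid mean was highest in replicate 1, and both genes were highest in replicate 3. The part of remaining erythroid cells was not tested. The other members of smallest p were Slc38a9, an arginine sensor of the lysosome (0.30, SE 0.11, adjusted p = 0.636), Slc2a12, a glucose carrier (-0.24, SE 0.10, adjusted p = 0.653), and Slc2a10, likewise a member of the glucose carrier family (-0.28, SE 0.12, adjusted p = 0.653).

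In the test of the difference between KO effects, 6 members (6.67%) had an unadjusted p under 0.05, against 4.27% of all genes, and 1 of these, Slc6a20a, passed after adjustment. The other 5 were Slc7a3, Slc16a10, Slc2a10, Slc7a2 and Slc6a9, with adjusted p-values of 0.933 to 0.999 in limma.

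Partners and regulators of the carriers were also set against the genotypes. None of the 16 measured partner genes, such as the chaperones Bsg and Emb, the GLUT1-binding protein Stom and the glucose uptake inhibitor Txnip, passed the threshold in either KO comparison. At an unadjusted p under 0.05 there were 2 of them in TER119 positive cells, where 5.33% of all genes lay below it, and 3 in TER119 negative cells, where 7.56% did. Stom, which encodes stomatin, read 12.00, 11.93 and 11.84 in KO TER119 positive cells, against 11.50, 11.39, 11.53 and 11.40 in WT TER119 positive cells. The groups did not overlap, and the difference was 0.47 (SE 0.17, adjusted p = 0.534, limma), while a fit of the TER119 positive arrays only put it past the threshold (SE 0.08, adjusted p = 0.0195). None of the 28 measured genes of the response to amino acid shortage passed in either comparison, with 3 and 2 at an unadjusted p under 0.05 in TER119 positive and TER119 negative cells, beside the same shares of all genes. Atf4, the main transcription factor of that response, differed by 0.06 (SE 0.13) in TER119 positive cells and by 0.10 (SE 0.12) in TER119 negative cells. Asns, asparagine synthetase, a target of ATF4, differed by 0.06 in both (SE 0.12 each).

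The populations differed far more than the genotypes. Among KO arrays 37 members were higher in TER119 positive cells (41.1%, against 22.6% of all genes) and 14 were lower (15.6%, against 26.5%). Among WT arrays 36 were higher (40%, against 23.5% of all genes) and 15 were lower (16.7%, against 29.1%). In all, 51 members passed in each genotype (56.7%), against 49% of all genes in KO arrays and 52.6% in WT arrays. The median differences of the members were 0.104 in KO arrays (all genes -0.059) and 0.077 in WT arrays (all genes -0.088). The genotypes share no arrays: 33 members were higher in both, 12 were lower in both, 6 passed in KO arrays only, 6 in WT arrays only and 33 in neither. The shares of all genes in these classes are not given here, so the counts describe the members alone. The difference between the genotypes was past its own threshold for Slc6a20a and for no other member. When each array was shifted to a common median, 34 members were higher and 21 lower in KO arrays, and 36 were higher and 18 lower in WT arrays.

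**Figure D3:**
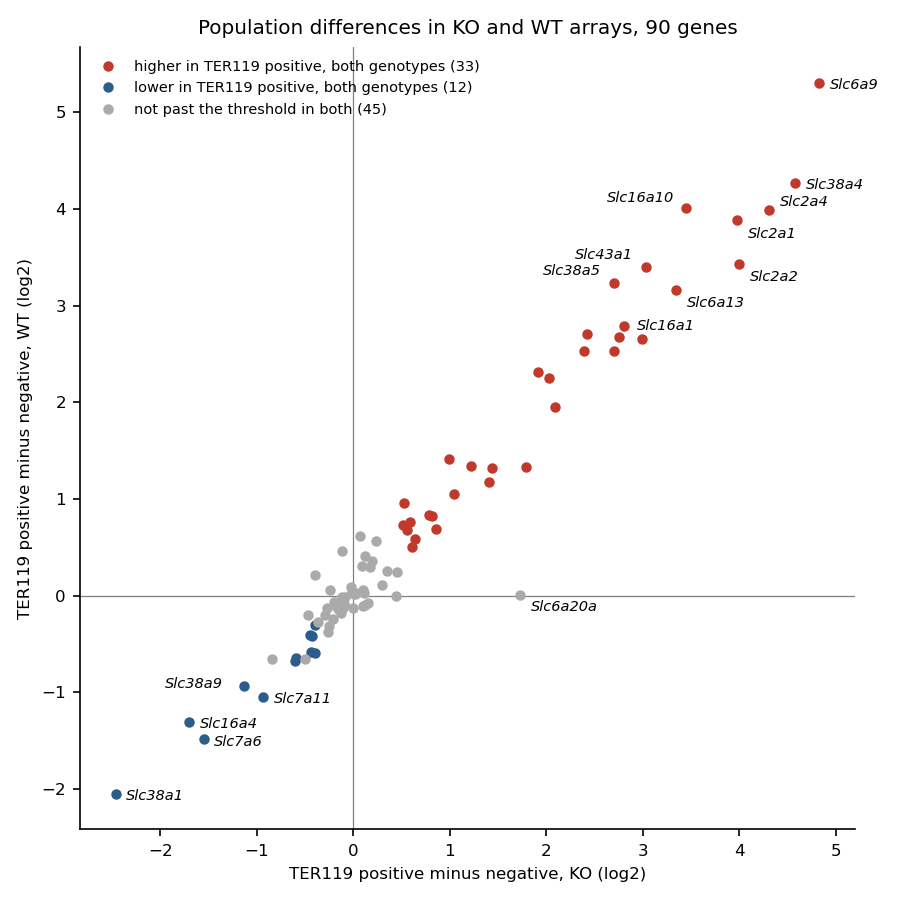
TER119 positive minus TER119 negative differences of the 90 genes on the log2 scale, in KO arrays (horizontal) and WT arrays (vertical), coloured by whether both passed the threshold. The points run along a diagonal up to Slc6a9 at 4.83 and 5.31, and Slc6a20a leaves it at 1.73 and 0.01.

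In these bulk samples, fewer cells of a type and less RNA per cell cannot be told apart. The 2 populations were sorted in different ways and the array names in the labels' descriptions (not the titles) follow a pattern of their own in each, so population and any batch shared by its arrays cannot be told apart. The 16 members more than 4-fold higher in both genotypes were Slc6a9, Slc38a4, Slc2a4, Slc2a1, Slc16a10, Slc2a2, Slc6a13, Slc43a1, Slc16a12, Slc16a1, Slc38a3, Slc38a5, Slc36a2, Slc1a5, Slc7a8 and Slc3a2. The share of all genes that rose as much is not given here. For 7 of them, Slc2a2, Slc2a4, Slc6a13, Slc16a12, Slc36a2, Slc38a3 and Slc38a4, the means of both TER119 negative groups lay below 5.47, the median of all genes. With no detection calls, such a low value may be background, and the folds of these 7 genes can understate the difference.

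Slc6a9, the glycine transporter gene, showed the largest population difference of all members in both genotypes. It read 10.88, 10.68 and 10.79 in KO TER119 positive cells and 10.95, 10.79, 10.91 and 10.73 in WT TER119 positive cells. It read 5.29 to 6.38 in TER119 negative cells. Its difference was 4.83 in KO arrays (SE 0.15, 28.4-fold, adjusted p = 4.77e-13, limma) and 5.31 in WT arrays (SE 0.14, 39.6-fold, adjusted p = 6.52e-14). No other glycine or proline carrier of Slc6 rose in both genotypes: Slc6a5, a neuronal glycine carrier, and Slc6a7, a proline carrier, lay between 4.22 and 5.33 in every array.

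Of the 13 genes of the Slc2 family, 4 were higher and 3 lower in KO arrays, and 4 were higher and 2 lower in WT arrays. Among all genes the shares were 22.6% higher and 26.5% lower in KO arrays, and 23.5% higher and 29.1% lower in WT arrays, so that the family lay near the background. Slc2a1 read 12.74 to 12.84 in all 7 TER119 positive arrays. In TER119 negative cells it read 8.94, 9.06, 8.78 and 8.51 in KO arrays and 9.07, 8.59, 9.35 and 8.75 in WT arrays. The difference was 3.98 (15.7-fold) in KO arrays and 3.89 (14.9-fold) in WT arrays, with adjusted p-values of 4.52e-12 and 1.76e-12 in limma. Slc2a4, whose KO TER119 positive values are given above, read 4.52 to 5.03 in TER119 negative cells. It rose by 4.31 (a measured 19.9-fold) in KO arrays and 3.99 (15.9-fold) in WT arrays. Slc2a3 was higher in TER119 positive cells by 0.07 in KO arrays (adjusted p = 0.804) and by 0.62 in WT arrays (adjusted p = 0.00998), and the difference between these did not pass the threshold (adjusted p = 0.999). The family's members that fell in both genotypes were dim: Slc2a7 by 0.60 and Slc2a12 by 0.40 on the log2 scale in KO arrays.

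**Figure D4:**
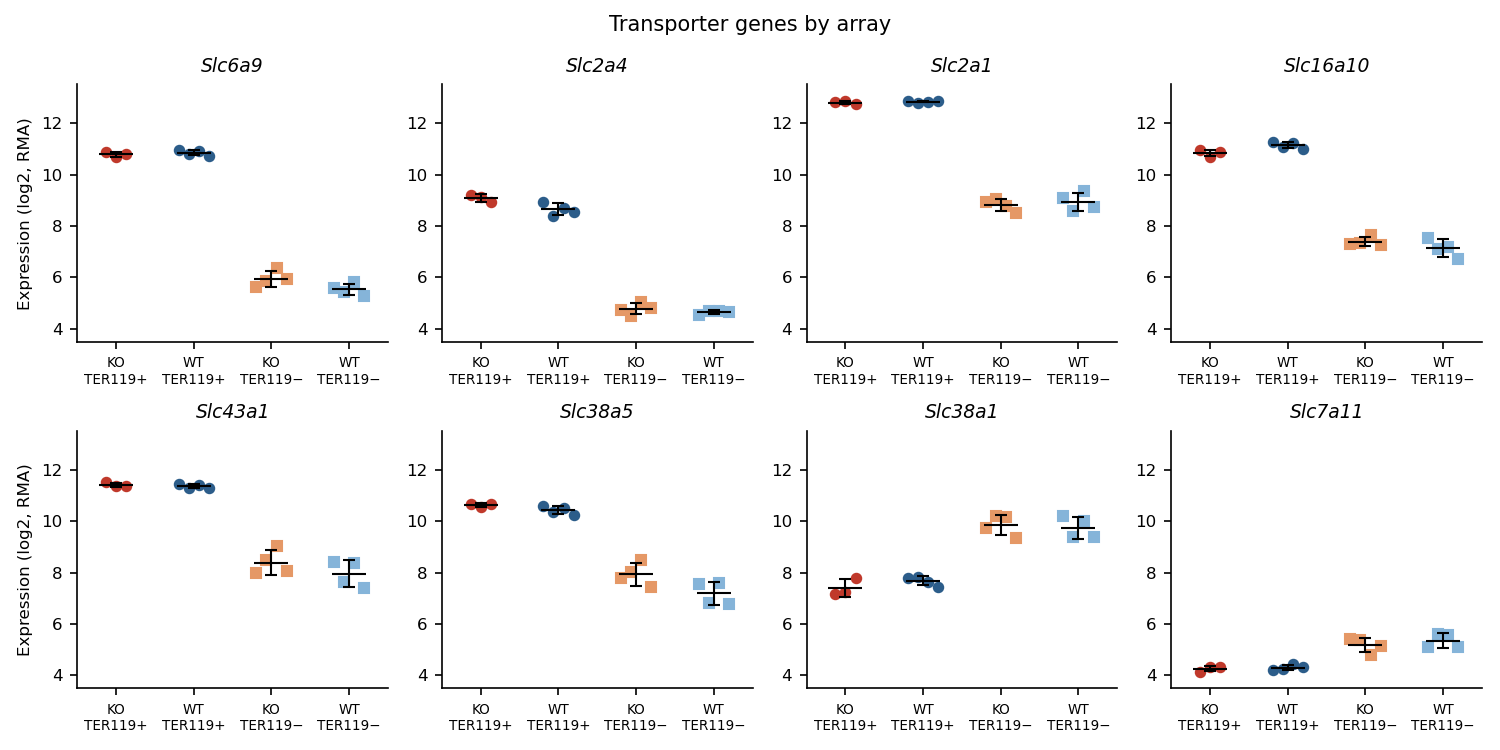
Log2 expression of 8 genes in each array (points), with the mean (long tick) and SD (bars) of the 4 groups. Slc6a9, Slc2a4, Slc2a1, Slc16a10, Slc43a1 and Slc38a5 are higher in every TER119 positive than in every TER119 negative array, and Slc38a1 and Slc7a11 are lower.

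Of the carriers of large neutral amino acids named here, Slc3a2, Slc7a5, Slc7a8, Slc43a1 and Slc43a2 were higher in TER119 positive cells of both genotypes. Slc6a15, a carrier of branched-chain amino acids, was lower, by 0.45 in KO arrays (adjusted p = 0.0132, limma) and 0.41 in WT arrays (adjusted p = 0.0141) on the log2 scale, at levels below the median of all genes. Slc3a2, the heavy chain of the heterodimers, read 10.80, 10.76 and 10.79 in KO and 10.78 to 10.85 in WT TER119 positive cells. It read 8.68, 9.01, 8.97 and 8.37 in KO and 8.86, 8.42, 8.82 and 8.13 in WT TER119 negative cells. All 7 TER119 positive arrays lay above all TER119 negative arrays, and the population difference was 2.03 (4.08-fold) in KO arrays and 2.25 (4.75-fold) in WT arrays. Its light chains did not all move with it. Slc7a5, which makes the leucine carrier LAT1, was higher by 1.92 in KO arrays (SE 0.25, adjusted p = 5.76e-06, limma) and 2.31 in WT arrays (SE 0.23, adjusted p = 2.7e-07). Slc7a8, which makes LAT2, was higher by 2.39 and Slc7a7, which makes an exporter of basic amino acids, by 0.79 in KO arrays.

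Slc7a6 and Slc7a11, which also pair with Slc3a2, fell. Slc7a6, a further exchanger of basic for neutral amino acids, read 6.26, 5.86 and 7.06 in KO and 6.87, 6.29, 6.24 and 6.20 in WT TER119 positive cells. It read 8.43, 8.11, 7.99 and 7.26 in KO and 8.14, 7.55, 8.32 and 7.54 in WT TER119 negative cells. Every TER119 positive array was below every TER119 negative array, and the fall was 1.55 in KO and 1.49 in WT arrays on the log2 scale. Slc7a11, the cystine and glutamate exchanger, read 4.14, 4.31 and 4.31 in KO and 4.20 to 4.45 in WT TER119 positive cells. It read 5.43, 5.37, 4.79 and 5.15 in KO and 5.12, 5.60, 5.59 and 5.11 in WT TER119 negative cells, and the difference was -0.93 in KO arrays (SE 0.16, adjusted p = 0.000105, limma) and -1.05 in WT arrays (SE 0.15, adjusted p = 1.31e-05). The means of Slc7a11 lay below 5.47, the median of all genes, in all 4 groups, so the size of its fall can be understated. All 3 genes of the Slc43 family were higher in both genotypes. Slc43a1, the leucine carrier LAT3, which works without a heavy chain, was higher by 3.03 (8.19-fold) in KO and 3.40 (10.6-fold) in WT arrays. Slc43a2, which encodes the related LAT4, was higher by 2.09 and 1.95 in KO and WT arrays, and Slc43a3, a purine nucleobase carrier, by 0.59 and 0.76.

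Slc16a10, a carrier of aromatic amino acids, read 10.95, 10.70 and 10.87 in KO and 11.26, 11.07, 11.23 and 11.00 in WT TER119 positive cells. It read 7.30, 7.35, 7.64 and 7.26 in KO and 7.54, 7.11, 7.19 and 6.70 in WT TER119 negative cells. Its population difference was 3.45 (10.9-fold) in KO and 4.01 (16.1-fold) in WT arrays, and the KO minus WT difference was -0.30 (SE 0.16, adjusted p = 1) in TER119 positive cells. The basic amino acid carrier Slc7a1 did not pass in either genotype (0.24 in KO arrays, adjusted p = 0.483, and 0.56 in WT arrays, adjusted p = 0.0579, limma). In WT arrays it passed in 6 of 22 alternative fits, with differences of 0.10 to 0.75 and adjusted p-values of 0.0105 to 0.679.

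Glutamine and small neutral amino acid carriers went both ways. Slc1a5, the exchanger ASCT2, read 11.00, 10.85 and 10.78 in KO and 10.74 to 10.96 in WT TER119 positive cells. It read 8.47, 8.65, 8.74 and 7.97 in KO and 8.69, 7.86, 8.41 and 7.64 in WT TER119 negative cells. It was higher by 2.42 (5.34-fold) in KO and 2.71 (6.54-fold) in WT arrays, and its relative Slc1a4 by 1.05 in each. Of the 11 genes of the Slc38 family, 7 were higher and 3 lower in KO arrays, and 7 were higher and 4 lower in WT arrays, against 22.6% higher and 26.5% lower among all genes in KO arrays and 23.5% and 29.1% in WT arrays. Slc38a5 read 10.66, 10.55 and 10.67 in KO and 10.57, 10.37, 10.51 and 10.24 in WT TER119 positive cells, higher than in TER119 negative cells by 2.70 in KO and 3.23 in WT arrays. Slc38a1, a sodium-coupled glutamine carrier, did the opposite. It read 7.15, 7.25 and 7.78 in KO and 7.79, 7.84, 7.63 and 7.45 in WT TER119 positive cells. It read 9.74, 10.18, 10.15 and 9.33 in KO and 10.18, 9.37, 10.01 and 9.37 in WT TER119 negative cells.

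Slc38a1 was the only member more than 4-fold lower in both genotypes, by 2.46 in KO arrays (SE 0.23, adjusted p = 1.51e-07, limma) and 2.05 in WT arrays (SE 0.22, adjusted p = 4.73e-07) on the log2 scale. Its second probe set gave -2.78 in KO and -2.42 in WT arrays. Slc38a2, a related carrier, was higher by 0.56 in KO arrays (adjusted p = 0.0333) and 0.68 in WT arrays (adjusted p = 0.00707). Slc38a9 was lower by 1.13 and 0.94 on the log2 scale in KO and WT arrays, and its second probe set differed by -0.68 and -0.67. It read 7.42, 7.47 and 7.57 in KO and 7.29 to 7.49 in WT TER119 positive cells, against 8.51, 8.72, 8.64 and 8.59 in KO and 8.08 to 8.53 in WT TER119 negative cells. Markers of blood progenitors were also lower in TER119 positive cells, 8 of 10 in KO arrays and 7 of 10 in WT arrays, with median differences of -1.45 and -1.53. Their mean was 5.88 to 5.97 in KO and 5.89 to 6.01 in WT TER119 positive arrays, against 7.27 to 7.65 in KO and 7.20 to 7.65 in WT TER119 negative arrays. Progenitor markers were not alone in this: most markers of neutrophils, mast cells, B cells, and T and natural killer cells were lower too, as given below. The part of any of these cell types in the falls of Slc38a1, Slc38a9 and Slc7a6 was not tested. Slc36a4, a proline and tryptophan carrier, differed by -0.50 in KO arrays (adjusted p = 0.162) and -0.66 in WT arrays (adjusted p = 0.0456), and the call in WT arrays was lost in 11 of 22 alternative fits.

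Of the 13 genes of the Slc16 family, 8 were higher and 1 lower in each genotype, against 22.6% and 26.5% of all genes in KO arrays and 23.5% and 29.1% in WT arrays. Slc16a1, the lactate carrier MCT1, read 11.41, 11.27 and 11.21 in KO and 11.19, 10.86, 11.08 and 10.79 in WT TER119 positive cells. It read 8.11, 8.84, 8.64 and 8.37 in KO and 8.68, 7.82, 8.21 and 8.04 in WT TER119 negative cells, so that it was higher in TER119 positive cells by 2.81 (7.01-fold) in KO and 2.79 (6.93-fold) in WT arrays. Slc16a3, the lactate carrier MCT4 of glycolytic cells, was higher by 0.86 and 0.69 in KO and WT arrays.

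The 2 partners of lactate carriers named above, Bsg and Emb, ran in opposite directions. Bsg read 10.03, 9.97 and 9.89 in KO and 9.86 to 10.12 in WT TER119 positive cells, against 8.39 to 8.60 in KO and 8.25 to 8.40 in WT TER119 negative cells, higher by 1.47 in KO and 1.65 in WT arrays. Emb read 6.51, 6.36 and 6.72 in KO and 5.88 to 6.65 in WT TER119 positive cells, against 10.40 to 10.80 in KO and 10.35 to 10.88 in WT TER119 negative cells. It was lower by 4.02 (16.2-fold) in KO and 4.28 (19.4-fold) in WT arrays. The 16 measured partner genes were divided evenly, with 6 higher, 6 lower and 4 not past the threshold in each genotype, where 49% of all genes passed in KO arrays and 52.6% in WT arrays. Slc16a4 was the member of Slc16 that fell, by 1.70 in KO and 1.31 in WT arrays on the log2 scale. Its means in TER119 positive cells, 4.47 in KO and 4.49 in WT arrays, lay below 5.47, the median of all genes. The size of this fall can thus be understated. Emb and Slc16a4 fell beside the markers of other blood cells: all 12 markers of neutrophils and granulocyte precursors fell in TER119 positive cells of both genotypes, with a median difference of -4.84 in KO and -5.33 in WT arrays. Those markers averaged 5.32 to 5.87 in KO and 5.14 to 5.54 in WT TER119 positive arrays, against 10.14 to 10.67 in KO and 10.52 to 10.89 in WT TER119 negative arrays. Among KO TER119 negative arrays, replicate 1 was highest for the markers and for Emb, but lowest for Slc16a4, at 5.54. Among WT TER119 negative arrays, replicate 1 was lowest for the markers and highest for Slc16a4, at 6.19. Other blood cell lists were lower in TER119 positive cells too. In each of the B lineage, T and natural killer, and mast cell and basophil lists, 5 of 7 measured markers were lower in each genotype. Among all genes 26.5% were lower in KO arrays and 29.1% in WT arrays. KO TER119 negative replicate 1 was the highest KO array for these lists and for the progenitor and megakaryocyte markers as well. The order of KO arrays does not tell these lists apart, and the part of each cell type in the falls was not tested.

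Among the 28 measured genes of the amino acid shortage response, 10 were higher and 7 lower in TER119 positive cells of KO arrays, and 13 were higher and 8 lower in WT arrays. Of all genes, 22.6% were higher and 26.5% lower in KO arrays, and 23.5% and 29.1% in WT arrays. Atf4 was higher by 0.81 in KO and 0.85 in WT arrays, and Asns was lower by 0.37 in each on the log2 scale. Eif2ak1, the haem-regulated kinase that acts upstream of ATF4 and was named after its values were seen, was higher by 2.09 in KO and 2.24 in WT arrays. The glucose uptake inhibitor Txnip was higher by 0.59 in KO and 0.76 in WT arrays.

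Several of the members highest in TER119 positive cells are known from liver, and they varied between TER119 positive arrays with the hepatocyte markers. Slc2a2 read 9.45, 9.42 and 8.68 in KO and 8.46, 9.38, 8.42 and 8.99 in WT TER119 positive cells. The 20 hepatocyte markers averaged 11.53, 11.52 and 11.05 in KO and 10.89, 11.63, 11.02 and 11.56 in WT TER119 positive arrays, in the same order of arrays. KO replicates 1 and 2 and WT replicates 2 and 4 were the high arrays in both. The 10 stromal and stellate markers were high in these arrays too. They averaged 6.94, 7.26 and 6.49 in KO and 5.93, 6.88, 6.16 and 7.16 in WT TER119 positive arrays. The order of arrays does not tell these 2 marker lists apart. Slc36a2, a proton-coupled carrier of glycine and proline, read 7.93, 7.73 and 7.07 in KO and 6.76, 7.90, 6.83 and 7.84 in WT TER119 positive cells. Slc38a3, a glutamine carrier of liver and kidney, read 7.63, 7.26 and 6.61 in KO and 6.75, 7.92, 6.67 and 7.65 in WT TER119 positive cells. Both genes were high in the same 4 arrays. So were Slc6a13, a carrier of GABA and taurine found in liver, at 9.04, 8.82 and 8.35 in KO and 8.17, 9.22, 8.11 and 8.99 in WT cells, and Slc16a12, a creatine carrier, at 7.49, 7.51 and 7.07 in KO and 6.70, 7.55, 6.91 and 7.67 in WT cells.

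Slc38a4, a sodium-coupled amino acid carrier of liver, read 9.93, 9.81 and 9.57 in KO and 9.25, 10.22, 9.55 and 9.93 in WT TER119 positive cells, and it was higher there than in TER119 negative cells by 4.58 (23.9-fold) in KO and 4.27 (19.4-fold) in WT arrays. Slc2a2 was higher by 4.00 (16.0-fold) in KO and 3.43 (10.8-fold) in WT arrays, and Slc6a13 by 3.35 and 3.16. In TER119 negative cells the hepatocyte markers averaged 6.39, 5.71, 5.47 and 6.87 in KO and 5.63, 6.74, 7.18 and 7.81 in WT arrays. WT replicate 4, the array with the highest hepatocyte mean there, was also highest for Slc2a2 at 6.01 and for Slc38a4 at 6.07. Slc6a13 was highest in WT replicate 3, at 5.68. WT replicate 4 also had the highest median of all probe sets of any array, at 5.43. Other dim members, such as Slc7a12 at 5.19 and Slc7a10 at 5.24, were highest in it as well.

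Slc2a1, Slc6a9, Slc43a1 and Slc3a2 did not vary in this way. Over the 7 TER119 positive arrays, in which the hepatocyte mean ranged from 10.89 to 11.63, Slc2a1 stayed between 12.74 and 12.84, Slc6a9 between 10.68 and 10.95, and Slc43a1 between 11.30 and 11.51. The 16 erythroid markers averaged 11.58 to 11.63 in KO and 11.51 to 11.68 in WT TER119 positive arrays. Macrophage markers were also higher in TER119 positive cells (10 of 12 in KO arrays, 11 of 12 in WT arrays), as were endothelial markers (8 of 10 in each). So were stromal and stellate markers (10 of 10 in KO arrays, 9 of 10 in WT arrays). The part of each cell type in the population differences was not tested.

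**Figure D5:**
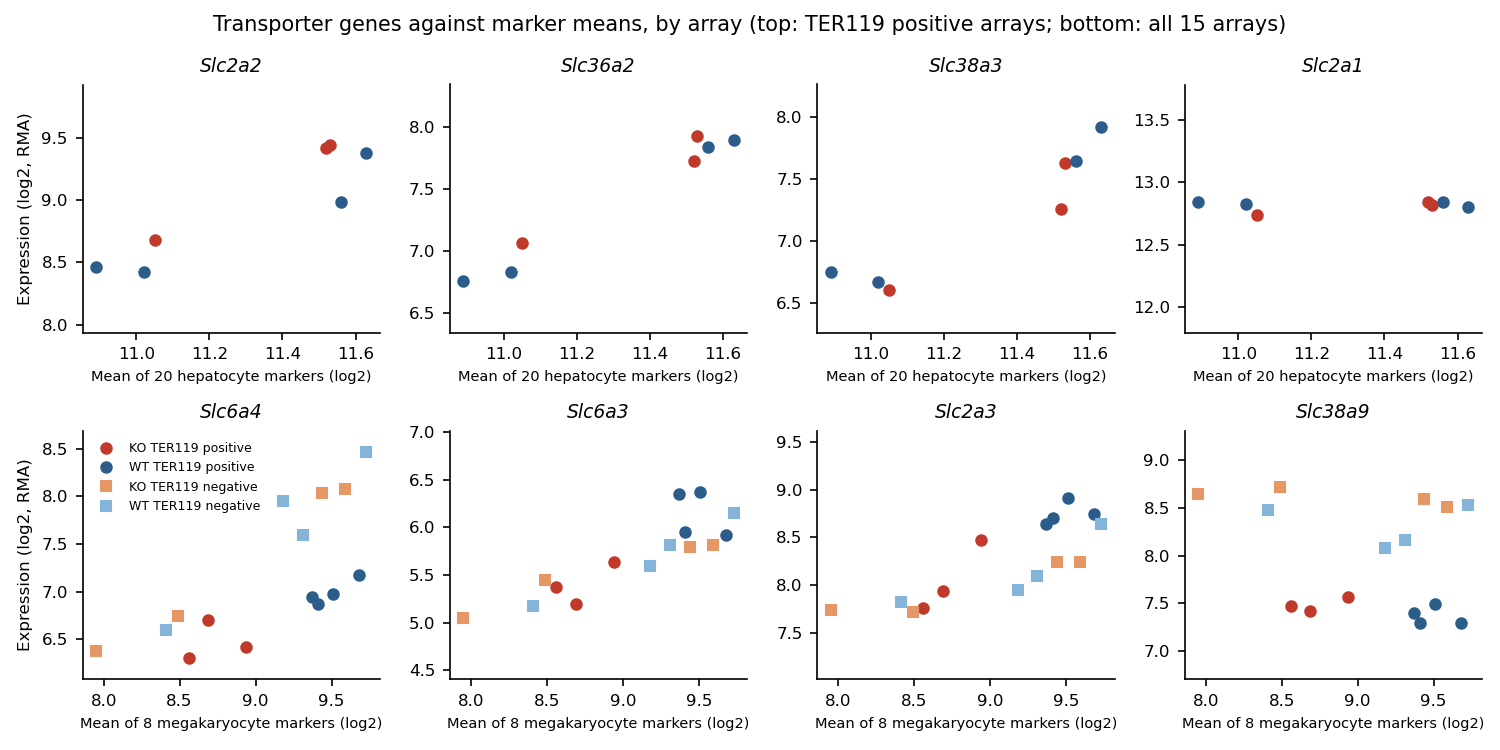
Log2 expression of 4 genes against the mean of 20 hepatocyte markers in the 7 TER119 positive arrays (top), and of 4 genes against the mean of 8 megakaryocyte markers in all 15 arrays (bottom), 1 point per array. Slc2a2, Slc36a2 and Slc38a3 are high where the hepatocyte mean is above 11.5 and Slc2a1 is level. Within each population, Slc6a4, Slc6a3 and Slc2a3 are mostly higher where the megakaryocyte mean is higher. Slc6a4 in WT TER119 positive arrays lies below TER119 negative arrays of like marker mean, and Slc38a9 separates by population.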

How the data were processed

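Total RNA from magnetically sorted cells was hybridised, per the labels' protocols, to Affymetrix arrays. The authors deposited log2 expression values per probe set, made with RMA and Partek per the submitters' processing notes, with tool versions not given in the sources used here. In its usual form, RMA subtracts background and makes arrays share a distribution, so a shift of all genes is not visible. Of 35399 probe sets, 21789 had 1 gene symbol, and for each symbol the probe set of highest mean was kept. All 15 arrays were fitted in limma 3.58.1 (R 4.3.3) with a mean per group and empirical Bayes moderation (11 residual and 4.91 prior degrees of freedom), and members were read off tests adjusted over 19938 genes. The fit was tested on simulated data. All members were matched to RefSeq by gene identifier.

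The members, lists, tests and alternatives were chosen with earlier results of these data known. Named genes were every member past the threshold in a KO comparison or the interaction, the 10 largest rises and falls per population comparison, a list chosen for biology, and the 5 of smallest p per KO comparison; others are named as examples or were chosen after their values were seen. Alternatives were a filter on dim genes, centring, mean of probe sets, trended robust variance, replicate and sex factors, a hepatocyte covariate, the arrays of 1 population, and each array left out. A further alternative left out together the TER119 negative arrays treated as standing apart. The number of arrays limits the precision. Most same-numbered arrays did not deviate together from their group means (21 pairs, r -0.384 to 0.654, 6 over 0.1). KO and WT TER119 negative replicates 4, both among the arrays treated as standing apart, did so (r = 0.654). Whether these arrays share a batch is not known.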

Additional observations from a re-analysis of the deposited data

Results flagged for a closer look

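The KO effect on Slc6a20a differed between the populations, by 1.71 on the log2 scale in the test of that difference (adjusted p = 0.00213, limma). In 111 groups of 4 arrays of named genes, 4 had an array far from the others by Dixon's test, and chance gives about 1 in 20. Slc16a4 read 5.54 in KO TER119 negative replicate 1, with the nearest array at 6.30. Slc16a12 read 4.65 in KO TER119 negative replicate 4, with the nearest at 4.28. Slc7a8 read 5.08 in the same array, with the nearest at 5.95. Slc7a6 read 6.87 in WT TER119 positive replicate 1, with the nearest at 6.29.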

How the results depend on the processing

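Slc6a20a passed the threshold in TER119 positive cells in all 23 alternatives, with differences of 1.96 to 2.31 and adjusted p-values of 8.42e-07 to 0.000261 in limma, and its interaction passed in all 22 (1.59 to 1.94). Members called for KO against WT in TER119 positive cells numbered 1 in every alternative except the fit of that population's arrays only, which called 2 (Slc6a3 added, adjusted p = 0.0404); the same fit called 1 partner gene, Stom, against 0. In TER119 negative cells 0 members were called in every alternative. Between populations, 46 to 53 members were called in KO arrays and 48 to 53 in WT arrays when single arrays were left out. Leaving out dim genes before the fit called 37 and 38, since fewer members were tested. With the replicate number as a block, members called were 1, 0 and 1 for KO against WT in TER119 positive and negative cells and the interaction, and 52 and 50 between populations in KO and WT arrays. Of 68 called single-gene results, 5 missed the threshold in some alternative (Slc7a6os and Slc38a2 in KO arrays, Slc36a4, Slc6a15 and Slc2a3 in WT arrays) and 0 changed direction. Of 129 not called, 5 passed in some alternative (Slc36a4 in KO arrays, Slc2a4rg-ps, Slc7a1 and Slc6a3 in WT arrays, and Slc6a3 for KO against WT in TER119 positive cells) and 51 changed sign. Dim genes limit what could be seen, as RMA compresses their differences, and Slc16a9's probe sets disagreed (0.41 and -0.20 in WT arrays).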
